A study of Rattus norvegicus with 22 samples.

Results

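The genes described here are those of the matrix metalloproteases (MMPs), the ADAMTS proteases and the tissue inhibitors of metalloproteases (TIMPs) of the rat ventral cervical spinal cord. Members were taken by gene symbol alone, as every symbol made of Mmp, Adamts or Timp followed by its number, without Mmp8 and Mmp9. The rule found 43 of the 32883 genes of the count table: 20 MMP genes, 19 ADAMTS genes and 4 TIMP genes. RNA-seq was performed on 22 Sprague-Dawley rats aged 3 to 4 months, with 1 library per rat. The groups were 5 gonadally intact males, 5 males whose testes had been removed (GDX), 6 ovary-intact females and 6 females whose ovaries had been removed (OVX). Tissue was the ventral part of cervical segments C3 to C6, collected after saline perfusion, and 2 weeks after surgery in the gonadectomized rats. Controls were intact and age-matched, so surgery and loss of gonadal hormones cannot be told apart.

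MMPs are zinc-dependent endopeptidases that degrade collagens, basement membrane proteins and cell surface proteins, and most are secreted or held at the cell membrane as inactive precursors. ADAMTS proteases are secreted relatives with thrombospondin-like repeats, and several of them cleave the large chondroitin sulfate proteoglycans that fill the extracellular space of the central nervous system and form the perineuronal nets around neurons. TIMPs bind the active site of these enzymes and block it, and the balance of proteases and inhibitors shapes matrix turnover at the meninges, around vessels and around synapses.

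The libraries differed in a way that the groups do not share equally. The study's sequencing table gives an average fragment size for each library, and these sizes fall into a lower and a higher set, named here the short- and the long-fragment class. What the split reflects is not stated. All 5 GDX and all 6 OVX libraries belong to the short-fragment class, as do intact males 2 and 5 and intact females 1 and 4. The other 3 intact male and 4 intact female libraries belong to the long-fragment class. Each comparison of gonadectomized with intact rats therefore partly overlaps with this split, and values from the short-fragment libraries alone (2 intact males, 2 intact females and all gonadectomized rats) are given beside each called member. Library totals ran from 12371756 to 17571887 counts. The median total of males was 14196615 when intact and 15645521 after GDX, and that of females 14640726 when intact and 14766802.5 after OVX.

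The tissue expressed most ADAMTS genes and all 4 TIMP genes, and few of the MMP genes. A count was present in all 22 libraries for 30 of the 43 members, and 29 passed the filter on low counts over the 22 libraries, namely 8 MMP, 17 ADAMTS and 4 TIMP genes. Of these, 28 passed in each of the 5 comparisons, and Mmp23 passed in 3 of them. Members together took between 678 and 796 of each 1000000 counts of a library, without scaling. Values called CPM are counts per 1000000 after TMM scaling of the libraries. Timp2 alone held 30.5% of the members' reads, and Timp2, Adamts4, Mmp15 and Timp3 together 64.0%. These shares also reflect transcript length, which the table does not give, so levels are not compared between genes. Rats of a group differed least for Adamts9, with a mean within-group coefficient of variation of 4.79%, and for Timp2, with 5.02%. The spread was widest for the low-count genes Adamts19, at 43.1%, and Mmp23, at 46.0%.

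The collagenases, the stromelysins, matrilysin and the macrophage elastase were at or near 0. No read was counted in any library for Mmp1, Mmp20, Mmp27 and Mmp28. A count of 0 allows up to 3 counts, for counting error only. Without scaling, this is 0.00912 per 1000000 counts over the 22 libraries together and 0.242 in the smallest library. Another 10 members had some counts but passed no filter. Their totals over the 22 libraries were 116 for Adamts18, 105 for Mmp13, 84 for Mmp3, 45 for Adamts13, 17 for Mmp21, 16 for Mmp10, 6 for Mmp11, 4 for Mmp1b, and 1 each for Mmp12 and Mmp7. Differences between groups in these 14 genes were not tested. In the RefSeq gene table of the GRCr8 build, 9 of the MMP genes lie in 1 cluster, in the order Mmp13, Mmp12, Mmp1b, Mmp3, Mmp1, Mmp10, Mmp27, Mmp20 and Mmp7, with 1 other protein-coding gene between Mmp10 and Mmp27. None of these 9 passed the filter. Adamts1 and Adamts5 are direct neighbours, as are Adamts15 and Adamts8.

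To show what the genes share in sequence, their promoters were read. RefSeq promoters of 300 bases, 250 before and 50 after the start, were at hand for 33 members, 19 that passed the filter and 14 that did not. The promoters printed here are those of the 4 members with an entry and the smallest adjusted p-values in GDX against intact males, and of Mmp3 as an example of the MMP cluster, whose counts were low or 0. Sequences run from 5′ to 3′ on the gene's strand in GRCr8. Capitals mark matches on either strand to the AP-1 site TGAGTCA, the GC box GGGCGG, the TATA box TATAAA, or the 6 and 5 letters bound by steroid receptors, AGAACA (androgen receptor) and GGTCA (estrogen receptor). Mmp2, Mmp14 and Adamts15 have no entry. The Adamts9 window is chr4:127019827-127020126 (minus strand), the Adamts12 window chr2:61759737-61760036 (plus strand), the Timp3 window chr7:19459509-19459808 (minus strand), the Adamts20 window chr7:127407247-127407546 (minus strand) and the Mmp3 window chr8:12925031-12925330 (plus strand).
Adamts9: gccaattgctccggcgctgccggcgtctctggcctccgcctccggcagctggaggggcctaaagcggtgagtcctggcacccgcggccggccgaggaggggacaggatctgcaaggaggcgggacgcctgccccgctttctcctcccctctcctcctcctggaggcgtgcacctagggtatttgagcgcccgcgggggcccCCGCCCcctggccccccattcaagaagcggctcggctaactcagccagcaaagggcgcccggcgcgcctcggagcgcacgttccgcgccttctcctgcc
Adamts12: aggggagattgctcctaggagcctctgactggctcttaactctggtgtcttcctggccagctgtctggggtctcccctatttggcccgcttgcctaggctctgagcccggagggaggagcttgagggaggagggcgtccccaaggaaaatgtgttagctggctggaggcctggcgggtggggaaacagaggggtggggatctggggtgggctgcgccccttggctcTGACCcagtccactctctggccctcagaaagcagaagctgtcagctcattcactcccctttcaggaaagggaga
Timp3: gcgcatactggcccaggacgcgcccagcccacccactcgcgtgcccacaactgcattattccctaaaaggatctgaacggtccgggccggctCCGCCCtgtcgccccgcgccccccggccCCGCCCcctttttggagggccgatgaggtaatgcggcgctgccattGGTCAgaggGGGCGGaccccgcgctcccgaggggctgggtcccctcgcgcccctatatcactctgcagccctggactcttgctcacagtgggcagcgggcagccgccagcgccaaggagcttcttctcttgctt
Adamts20: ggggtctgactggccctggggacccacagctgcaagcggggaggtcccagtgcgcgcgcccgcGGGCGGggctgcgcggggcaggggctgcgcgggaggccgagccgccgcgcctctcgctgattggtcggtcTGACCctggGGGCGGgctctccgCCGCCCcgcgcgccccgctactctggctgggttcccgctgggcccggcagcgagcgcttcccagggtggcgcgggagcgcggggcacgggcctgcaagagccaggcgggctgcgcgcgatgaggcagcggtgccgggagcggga
Mmp3: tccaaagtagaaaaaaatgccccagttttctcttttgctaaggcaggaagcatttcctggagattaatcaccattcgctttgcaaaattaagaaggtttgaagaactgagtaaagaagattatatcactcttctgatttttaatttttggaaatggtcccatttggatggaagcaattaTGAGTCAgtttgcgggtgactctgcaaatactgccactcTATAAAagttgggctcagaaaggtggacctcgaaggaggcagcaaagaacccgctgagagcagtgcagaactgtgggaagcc

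The GC box was found in 33.1% of all 33469 promoters and in 15 of the 33 members with a promoter (45.5%), of which 13 passed the filter. Members are counted once, by a match in any of their promoters, and 2 members had more than 1. Timp3 and Adamts20 each held 3 matches and Adamts9 held 1. The AP-1 site, known from the classical MMP promoters, was found in 4.63% of all promoters and in 6 members (18.2%). These were Mmp13, Mmp3, Mmp10, Mmp12, Mmp7 and Mmp1, all in the MMP cluster, of which no gene passed the filter. TATAAA was present in 14.2% of all promoters and in 11 members (33.3%), 8 of which did not pass the filter. Mmp3 shows it after its AP-1 match. Promoters of members that passed had a median GC content of 66.7% (n = 19), against 45.8% for the others (n = 14) and 51.7% for all promoters. For the receptor motifs, AGAACA was found in 20.7% of all promoters and in 5 members (15.2%), and GGTCA in 40.5% and in 14 members (42.4%). The full androgen response element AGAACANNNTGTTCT (0.0149% of all promoters) and the full estrogen response element GGTCANNNTGACC (0.0269%) were in no member's window. The receptor motifs lie within the full elements, so those counts overlap. A match describes these letters only and was not read as a bound site.

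Removal of the testes was accompanied by higher Timp3, Mmp2, Adamts9, Adamts10, Adamts12 and Adamts15 and by lower Adamts20, Adamts6 and Mmp24. The comparison asks how the tissue of males differs 2 weeks after loss of the testes. With edgeR's quasi-likelihood test at an adjusted p-value under 0.1, 9 of the 28 members tested differed (32.1%), against 1995 of 14931 genes tested (13.4%). Of these 9, 1 passed with fragment class as a term and 0 with the meninges and fibroblast genes as a covariate, a fit in which 6 genes of the whole table passed. All 17 tested genes of that list were higher after GDX, as were 4 of 4 endothelial and 4 of 6 mural cell genes. Of these members 6 were higher, where 6.78% of all genes were higher, and 3 were lower, where 6.58% of all genes were lower. Before adjustment, 14 members had p under 0.05, as did 23.8% of all genes tested. The median log2 fold change was 0.03 for the members and 0.00 for all genes, and the median of its size without sign was 0.25 for the members and 0.11 for all genes. Of the 28 members, 16 had a positive and 12 a negative log2 fold change. A median over members that go both ways does not show whether the family as a whole shifted, and this was not tested.

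**Figure D1:**
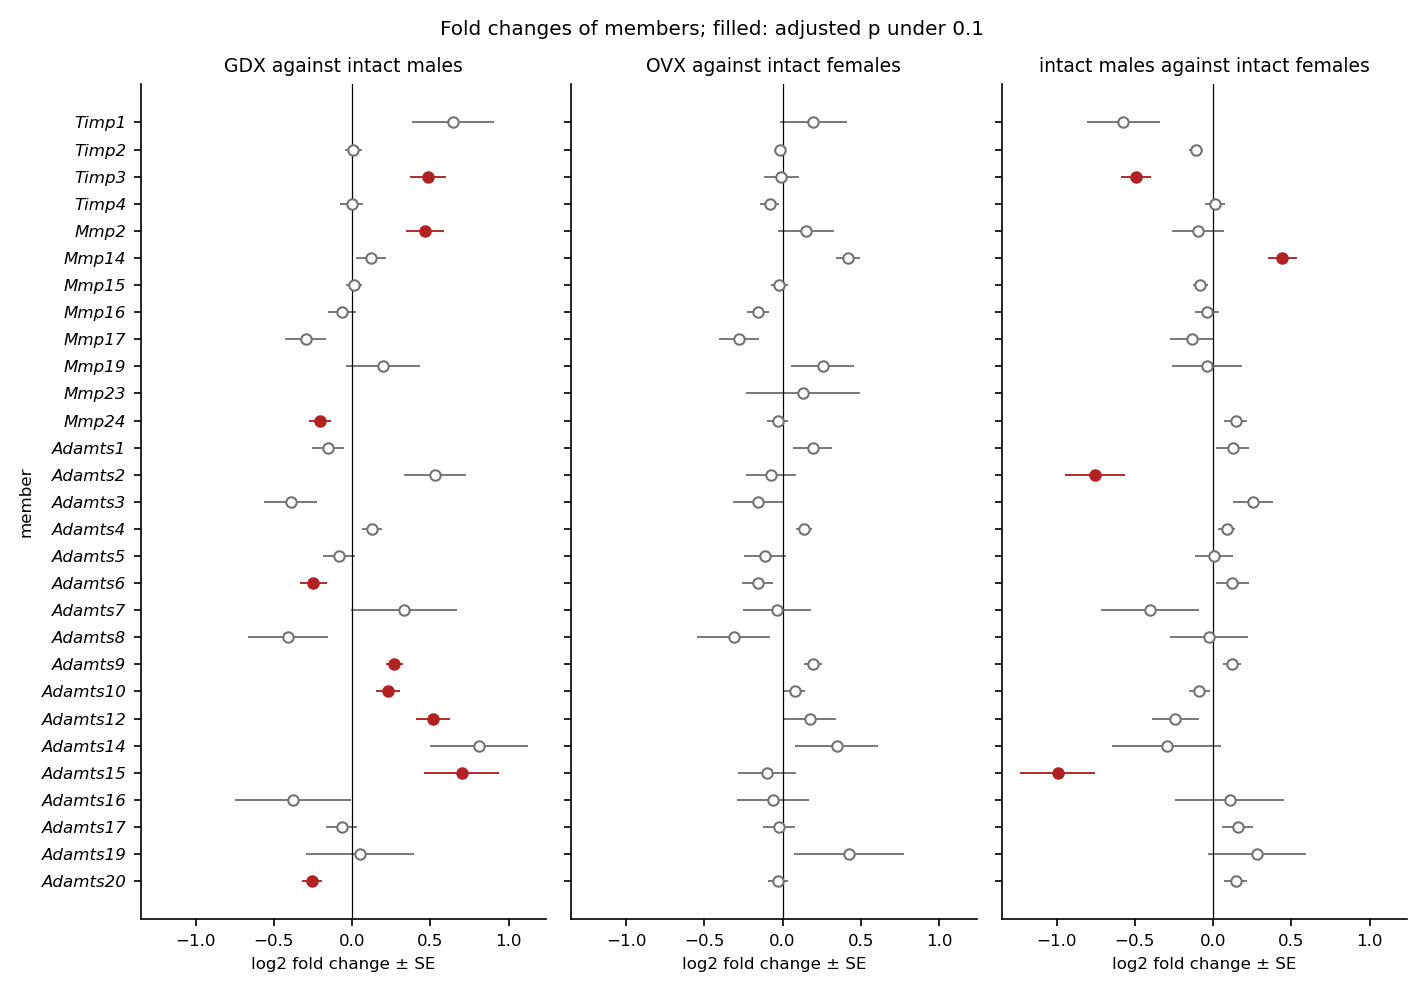
Log2 fold change (horizontal axis) with its standard error for the 29 members that passed the filter, in GDX against intact males, OVX against intact females and intact males against intact females. Filled red points have an adjusted p-value under 0.1: 9 members in the comparison of males, 0 in that of females and 4 between the intact sexes.

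Among the inhibitors, Timp3 (ENSRNOG00000004303) rose after GDX. Timp3 binds to the extracellular matrix and inhibits aggrecan-cleaving ADAMTS proteases and membrane ADAM proteases in addition to MMPs. Intact males 1, 2, 3, 5 and 6 had 46.9, 48.7, 46.6, 44.1 and 41.9 CPM of Timp3, and GDX males 1, 2, 4, 5 and 6 had 48.2, 56.6, 58.5, 84.4 and 71.4 CPM. GDX male 1 lay within the range of the intact males, the other 4 GDX males lay above all of them, and GDX males 5 and 6 were the highest. On the log2 scale the rise was 0.48 (SE 0.12, adjusted p = 0.0201, higher than the intact mean in 5 of 5 GDX rats). In short-fragment libraries alone it was 0.46 (SE 0.17, adjusted p = 0.192) and the call was lost, and with the meninges and fibroblast genes as a covariate the sign turned. In a bulk tissue, fewer or more cells of a type and less or more RNA per cell cannot be told apart, here and in the results that follow.

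Timp3 was also lower in intact males than in intact females. Its lowest, median and highest values were 47.4, 70.0 and 73.6 CPM in intact females and 49.4, 63.9 and 78.5 CPM in OVX females. Intact male against intact female rats gave -0.49 on the log2 scale (SE 0.10, adjusted p = 0.0161), with 4 of 5 intact males below all 6 intact females. This call too was lost in short-fragment libraries (-0.37, adjusted p = 0.480) and with the meninges and fibroblast covariate (-0.03, adjusted p = 0.977). OVX against intact females gave -0.01 (SE 0.11, adjusted p = 0.990). The difference between the male and the female response, tested as an interaction, was 0.50 (SE 0.18, adjusted p = 0.258), so it did not pass. The intact males were the low group, and the other 3 groups had means of 63.8, 64.5 and 63.8 CPM.

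The other 3 inhibitors did not pass the test in any comparison. Timp1, a secreted inhibitor induced in many injuries, had 1.20, 1.92, 1.43, 1.98 and 1.18 CPM in the intact males and 1.92, 2.54, 1.62, 3.83 and 2.22 CPM in the GDX males. These groups overlapped, with GDX male 5 the highest, and the log2 fold change of 0.64 (SE 0.26) had an adjusted p of 0.143. Females ran from 1.37 to 2.84 CPM with a median of 2.54 when intact, and from 1.67 to 3.52 CPM with a median of 2.71 after OVX. Timp2, which with Mmp14 takes part in the activation of the Mmp2 precursor, was among the steadiest members. Its values were 223, 226, 201, 231 and 201 CPM in the intact males and 219, 226, 202, 230.3 and 211 CPM in the GDX males, for a log2 difference of 0.01 (SE 0.05, adjusted p = 0.955). The lowest, median and highest Timp2 values in intact females were 218, 238 and 244 CPM, and those after OVX 215, 232 and 240.3 CPM. All 5 intact males lay below the intact female mean, but at -0.11 (SE 0.05) the sex difference had an adjusted p of 0.264. Timp4, a TIMP with a restricted range of tissues, had 17.6, 19.6, 20.1, 20.3 and 19.6 CPM in the intact males and 20.1, 18.9, 22.2, 18.2 and 17.6 CPM in the GDX males. Its ranges overlapped in all 4 groups, with 17.6, 19.0 and 21.4 CPM as the lowest, median and highest in intact females and 17.2, 18 and 19.1 CPM in OVX females. Log2 fold changes of Timp4 were -0.00 (SE 0.07, adjusted p = 0.989) in males and -0.08 (SE 0.06, adjusted p = 0.674) in females.

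Some of the TIMP genes share their place in the genome with another gene family. In GRCr8, Timp1 lies within Syn1, Timp4 within Syn2 and Timp3 within Syn3, the genes of the synapsins, which are presynaptic vesicle proteins. Timp1 and Timp4 lie on the opposite strand to their synapsin gene. The strand setting of the read counting is not stated, so reads of the host gene could not be separated. In GDX against intact males the synapsin genes fell, Syn1 with a log2 value of -0.32 (SE 0.07, adjusted p = 0.0161), Syn2 with -0.30 (SE 0.08, adjusted p = 0.0347) and Syn3 with -0.49 (SE 0.11, adjusted p = 0.0153). Timp3 and Syn3 thus moved in opposite directions in this comparison. Of the neuron marker genes, 3 of 5 were also lower in it, with a median log2 fold change of -0.26. All 17 tested meninges and fibroblast genes were higher, with a median of 1.60. The synapsin values are from the fit without terms for fragment class or marker lists. No synapsin gene passed the test in the other 4 comparisons. The synapsin genes lie outside the family and were looked at because of this position.

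Of the soluble MMPs, Mmp2 (ENSRNOG00000016695) rose after GDX. Mmp2 is gelatinase A, which degrades denatured collagen and the type IV collagen of basement membranes. Intact males had 9.42, 7.55, 9.29, 9.70 and 8.53 CPM, and GDX males had 8.96, 12.9, 14.5, 12.3 and 12.8 CPM. Again GDX male 1 lay among the intact males and the other 4 GDX males above them. The rise was 0.47 on the log2 scale (SE 0.12, adjusted p = 0.0269, higher than the intact mean in 5 of 5 GDX rats). Short-fragment libraries alone gave 0.51 (SE 0.18, adjusted p = 0.173), so the call was lost there, as it was with the meninges and fibroblast covariate (0.24, adjusted p = 0.952). In females the lowest, median and highest values were 6.85, 9.29 and 13.2 CPM before and 7.86, 10.4 and 14.7 CPM after OVX. These ranges overlapped widely, at 0.15 (SE 0.18, adjusted p = 0.845).

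Mmp14 (ENSRNOG00000010947), the membrane protease that activates the Mmp2 precursor and cleaves fibrillar collagen, was higher in intact males than in intact females, with ranges that overlapped. Its values were 35.6, 31.7, 30.7, 40.2 and 30.2 CPM in intact males and 34.8, 40.6, 31.1, 42.8 and 34.2 CPM in GDX males. In intact females it ran from 22.1 to 31.3 CPM with a median of 23.6, and in OVX females from 28.7 to 35.8 CPM with a median of 33.4. Intact females were the low group, intact female 4 alone reached the levels of the other groups, and 5 of 6 OVX females lay above all intact females. The difference between the intact sexes was 0.44 on the log2 scale (SE 0.09, adjusted p = 0.0204), with 5 of 5 males above the female mean and 3 of 5 above all females. With short-fragment libraries alone the value was 0.42 and the call was lost (adjusted p = 0.404), as it was with the meninges and fibroblast covariate (0.60, adjusted p = 0.416). OVX against intact females gave 0.42 (SE 0.08), and its adjusted p = 0.106 did not pass. It passed in some alternatives and not in others: adjusted p was 0.000575 with DESeq2 and 0.00171 with edgeR's exact test, and 0.0100 without intact female 4. It was 0.0580 without intact female 1, 0.0900 without OVX female 4 and 0.0450 without OVX female 5. It did not pass with fragment class as a term (0.30, adjusted p = 0.594), in short-fragment libraries alone (0.29, adjusted p = 0.748), with the meninges and fibroblast covariate, with a replicate block, at the 1 CPM minimum or with all 22 rats in 1 fit. GDX against intact males gave 0.12 (SE 0.10, adjusted p = 0.483). The interaction of -0.29 (SE 0.13, adjusted p = 0.376) did not pass either.

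Mmp24 (ENSRNOG00000047028), a membrane MMP known mainly from the nervous system, fell after GDX. Its values were 19.7, 19.2, 17.7, 18.5 and 19.9 CPM in intact males and 17.6, 17.1, 15.1, 15.1 and 17.5 CPM in GDX males. All 5 GDX males lay below all 5 intact males, by a small margin. Its log2 fold change was -0.20 (SE 0.07, adjusted p = 0.0874). It was no longer called when intact male 1, 2, 5 or 6 or GDX male 2, 4 or 5 was left out, with adjusted p-values up to 0.203 and log2 values between -0.22 and -0.17. Nor did it pass with the meninges and fibroblast covariate (-0.08, adjusted p = 0.968), DESeq2 (adjusted p = 0.127), the exact test (adjusted p = 0.103), no filter (adjusted p = 0.126) or in short-fragment libraries (-0.19, adjusted p = 0.333). Intact females ran from 14.9 to 19.6 CPM with a median of 17.5 and OVX females from 15.8 to 17.7 CPM with a median of 16.8, at -0.03 (SE 0.07, adjusted p = 0.929). The other membrane MMPs, Mmp15, Mmp16 and Mmp17, and the soluble Mmp19 passed the test in no comparison, nor did Mmp23, which was not tested in 2 of them.

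**Figure D2:**
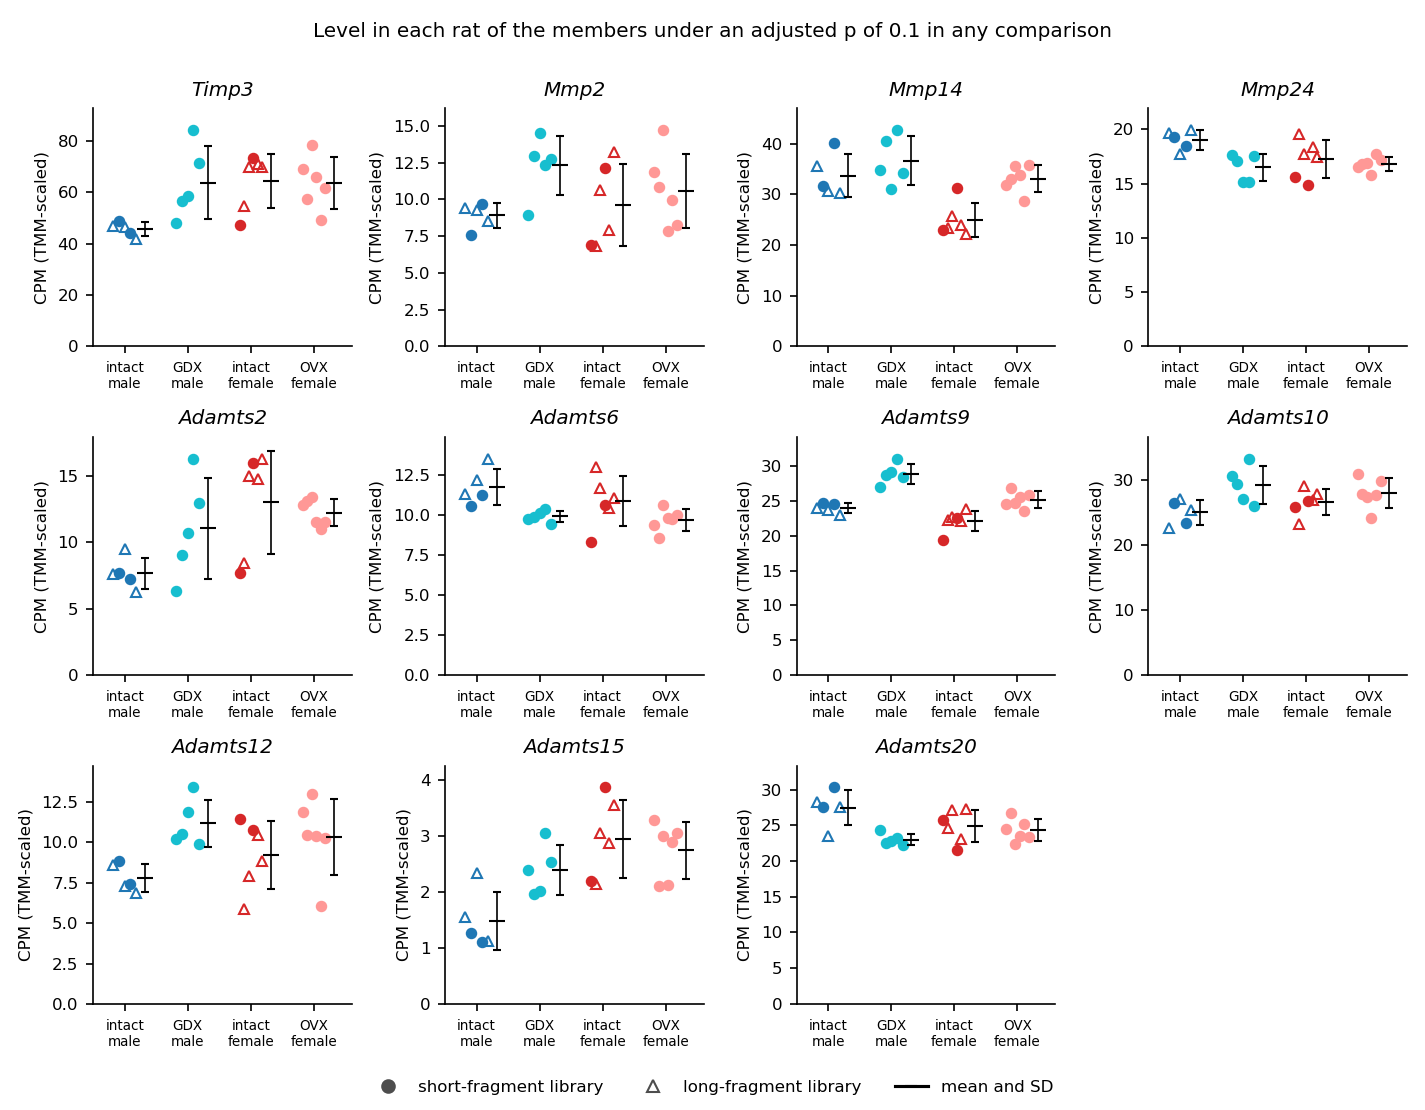
CPM of the 11 members with an adjusted p-value under 0.1 in at least 1 comparison, by group; circles are short-fragment and triangles long-fragment libraries, and bars give the mean and SD of the 5 or 6 rats. Timp3 is lowest in intact males (41.9 to 48.7 CPM), Mmp14 is lowest in intact females (22.1 to 31.3 CPM), and for Adamts9 all GDX males lie above all intact males.

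Among the ADAMTS proteases that cleave proteoglycans, Adamts9 (ENSRNOG00000023257) had the smallest p-value of all members after GDX. Adamts9 cleaves versican and aggrecan and is conserved down to invertebrates. The intact males had 24.0, 24.6, 23.7, 24.5 and 23.0 CPM, and the GDX males 27.0, 28.7, 29.2, 31.1 and 28.4 CPM. Every GDX male lay above every intact male, and both groups were narrow. That difference was 0.27 on the log2 scale (SE 0.05, adjusted p = 0.0100). It was 0.23 in short-fragment libraries alone, where it did not pass (adjusted p = 0.155), and 0.14 with the meninges and fibroblast covariate (adjusted p = 0.928). Intact females ran from 19.4 to 23.8 CPM with a median of 22.4, and OVX females from 23.6 to 26.9 CPM with a median of 25.1. Here 5 of 6 OVX females lay above all intact females, and the log2 fold change of 0.19 (SE 0.06) had an adjusted p of 0.242. GDX males lay above all OVX females as well, by 0.20 (SE 0.05, adjusted p = 0.275), in a comparison in which 0.232% of all genes passed. The interaction was 0.08 (SE 0.07, adjusted p = 0.731).

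Adamts20 (ENSRNOG00000033397), the closest relative of Adamts9 and also a versican protease, moved the other way. Intact males had 28.3, 27.5, 23.5, 30.3 and 27.6 CPM and GDX males 24.3, 22.5, 22.7, 23.2 and 22.2 CPM. The GDX males were narrowly grouped, and 4 of 5 lay below all intact males, of which intact male 3 was the lowest. The log2 fold change was -0.26 (SE 0.07, adjusted p = 0.0290, lower than the intact mean in 5 of 5 GDX rats). In short-fragment libraries alone it was -0.33 and passed (adjusted p = 0.0859). The call was lost with the meninges and fibroblast covariate (-0.19, adjusted p = 0.925) and with the Schwann cell list as a covariate (-0.15, adjusted p = 0.438). In females the lowest, median and highest values were 21.6, 25.1 and 27.3 CPM before and 22.3, 24.0 and 26.8 CPM after OVX, at -0.03 (SE 0.06, adjusted p = 0.929). The interaction of -0.22 (SE 0.09, adjusted p = 0.340) did not pass.

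Adamts15 (ENSRNOG00000009892), another versican protease, was low in intact males. It had 1.56, 1.26, 2.34, 1.11 and 1.12 CPM there, and 2.39, 1.96, 2.02, 3.05 and 2.54 CPM in GDX males. Intact male 3 overlapped with the GDX males and the other 4 lay below them. The log2 fold change was 0.70 (SE 0.24, adjusted p = 0.0878, higher than the intact mean in 5 of 5 GDX rats). The call was lost when intact male 1, 2, 5 or 6 or GDX male 1, 4, 5 or 6 was left out, with adjusted p-values up to 0.211. Neither did it pass with no filter (adjusted p = 0.140) or in short-fragment libraries, where the value was 1.01 (adjusted p = 0.128), or with the meninges and fibroblast covariate (0.19, adjusted p = 0.978). Intact females ran from 2.14 to 3.86 CPM with a median of 2.96, and OVX females from 2.11 to 3.29 CPM with a median of 2.94. Against intact females the intact males were lower, at -0.99 on the log2 scale (SE 0.24, adjusted p = 0.0405), with 4 of 5 below all intact females. That call was lost without intact male 2, 5 or 6, with adjusted p-values up to 0.113, and in short-fragment libraries, at -1.34 (adjusted p = 0.326). With the meninges and fibroblast genes as a covariate it was -0.20 (adjusted p = 0.950). The interaction of 0.80 (SE 0.30) had an adjusted p of 0.275.

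The best known aggrecanases, Adamts4 and Adamts5, and Adamts1 did not pass the test in any comparison. Adamts4, an aggrecan and brevican protease, had 98.7, 101, 109, 110.2 and 117 CPM in intact males and 119, 121, 109.9, 131 and 105 CPM in GDX males, a log2 difference of 0.13 (SE 0.06, adjusted p = 0.231). Intact females ran from 89.6 to 108 CPM with a median of 104, and OVX females from 97.9 to 119 CPM with a median of 112, at 0.14 (SE 0.05, adjusted p = 0.377). Of the OVX females 5 of 6 lay above all intact females. Adamts5 had 9.14, 7.99, 9.29, 6.80 and 8.40 CPM in intact males, and the GDX males were within 7.63 and 7.96 CPM, at 7.63, 7.96, 7.89, 7.87 and 7.82. Females ran from 7.33 to 10.1 CPM (median 7.51) when intact and from 5.21 to 8.89 CPM (median 8.21) after OVX. Adamts5 log2 fold changes were -0.08 (SE 0.10, adjusted p = 0.674) in males and -0.11 (SE 0.14, adjusted p = 0.849) in females. Adamts1, which cleaves versican and is next to Adamts5 on the chromosome, had 17.4, 15.2, 13.4, 13.2 and 14.4 CPM in intact males and 12.3, 11.4, 15.8, 14.5 and 12.3 CPM in GDX males. These overlapped, at -0.15 (SE 0.10, adjusted p = 0.401). In females it ran from 10.2 to 16.2 CPM (median 13.7) and, after OVX, from 10.3 to 17.6 CPM (median 16.3), at 0.19 (SE 0.12, adjusted p = 0.637). Adamts8, the neighbour of Adamts15, passed in no comparison.

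Outside the proteoglycan-cleaving group, Adamts12 (ENSRNOG00000018865) rose after GDX. Adamts12 degrades cartilage oligomeric matrix protein. Intact males had 8.57, 8.88, 7.33, 7.42 and 6.89 CPM and GDX males 10.2, 10.5, 11.9, 13.4 and 9.91 CPM. All 5 GDX males lay above all 5 intact males, with GDX male 5 the highest. The log2 fold change was 0.52 (SE 0.11, adjusted p = 0.0121). Restricted to short-fragment libraries it was 0.46 and did not pass (adjusted p = 0.151). With the meninges and fibroblast covariate it was 0.17 (adjusted p = 0.956). Females overlapped over a wide range, with a lowest, median and highest value of 5.88, 9.66 and 11.5 CPM when intact and of 6.09, 10.4 and 13 CPM after OVX, at 0.17 (SE 0.17, adjusted p = 0.792).

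Adamts10 (ENSRNOG00000008857) and Adamts6 (ENSRNOG00000012655) are close relatives, and Adamts10 is known for its binding to fibrillin microfibrils. They moved in opposite directions after GDX. Adamts10 had 22.7, 26.5, 27.0, 23.4 and 25.3 CPM in intact males and 30.5, 29.4, 27.0, 33.3 and 25.9 CPM in GDX males, at 0.23 (SE 0.08, adjusted p = 0.0768), with 5 of 5 GDX males above the intact mean. Adamts6 had 11.3, 10.6, 12.2, 11.3 and 13.5 CPM in intact males and 9.75, 9.87, 10.1, 10.4 and 9.45 CPM in GDX males, at -0.25 (SE 0.08, adjusted p = 0.0859). For Adamts6 all GDX males lay below all intact males, while for Adamts10 GDX male 6 lay among the intact males. Both calls were near the level. That of Adamts10 was lost without intact male 1, 5 or 6 or GDX male 1, 2 or 5, with adjusted p-values up to 0.197 and log2 values between 0.18 and 0.23. That of Adamts6 was kept, of the fits with 1 rat left out, only without intact male 2 (-0.28, adjusted p = 0.0755). Without any other rat it was lost, with adjusted p-values up to 0.193 and log2 values between -0.27 and -0.19. Adamts6 was not called with DESeq2 (adjusted p = 0.133), the exact test (adjusted p = 0.107) or no filter (adjusted p = 0.136), and Adamts10 was not with no filter (adjusted p = 0.103). Among short-fragment libraries both calls were lost, with Adamts10 at 0.23 (adjusted p = 0.271) and Adamts6 at -0.14 (adjusted p = 0.549), and both were lost with the meninges and fibroblast covariate. In females Adamts10 ran from 23.2 to 29.1 CPM (median 26.9) when intact and from 24.1 to 30.9 CPM (median 27.8) after OVX. Adamts6 ran from 8.32 to 13 CPM (median 10.8) and from 8.55 to 10.6 CPM (median 9.79). Neither passed in females, with adjusted p-values of 0.751 for Adamts10 and 0.620 for Adamts6.

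The procollagen N-proteinases, which trim the amino-terminal propeptide of fibrillar procollagens, are Adamts2 (ENSRNOG00000061484), Adamts3 and Adamts14. Adamts2 had 7.65, 7.70, 9.52, 7.23 and 6.23 CPM in intact males and 6.30, 9.06, 10.7, 16.3 and 13 CPM in GDX males. GDX males 5 and 6 were high and GDX male 1 was as low as the lowest intact male, and the log2 fold change of 0.53 (SE 0.20) had an adjusted p of 0.120. With DESeq2 it was 0.0650 and with edgeR's exact test 0.0914, and without GDX male 1 it was 0.0166 and without intact male 3 0.0962. In intact females Adamts2 ran from 7.71 to 16.3 CPM with a median of 14.9, and in OVX females from 11.0 to 13.5 CPM with a median of 12.2. Intact males were lower than intact females, at -0.76 on the log2 scale (SE 0.19, adjusted p = 0.0520), with 4 of 5 below all intact females. The call was lost without intact male 1, 2, 5 or 6 or intact female 3, 4, 5 or 6, with adjusted p-values up to 0.120, and in short-fragment libraries, at -0.65 (adjusted p = 0.481). With the meninges and fibroblast covariate the sign turned, to 0.18 (adjusted p = 0.928). Named after their values were seen, Adamts14 at 0.81 (SE 0.31, adjusted p = 0.130), Adamts3 at -0.39 (SE 0.17, adjusted p = 0.170) and the membrane protease Mmp17 at -0.30 (SE 0.13, adjusted p = 0.187) had unadjusted p-values under 0.05 in GDX against intact males but did not pass. Adamts14 was called there without intact male 1 and Adamts3 without GDX male 2. Adamts7, Adamts16, Adamts17 and Adamts19 passed in no comparison.

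Ovariectomy left no member past the test. The comparison asks the same question of females, and edgeR called 0 of the 29 members tested and 5 of 14910 genes (0.0335%). That count of genes was 174 with DESeq2 and 95 with the exact test, and from 0 to 113 when each rat was left out, with 113 without intact female 1 and 38 without OVX female 4. Unadjusted p-values under 0.05 were found for 5 members, namely Mmp14, Adamts9, Adamts4, Mmp16 and Mmp17, and for 10.2% of all genes. DESeq2 and edgeR's exact test each called 1 member, Mmp14. Mmp16 at -0.16 (SE 0.07, adjusted p = 0.459) and Mmp17 at -0.28 (SE 0.13, adjusted p = 0.471) were named after their values were seen. The median log2 fold change of the members was -0.02, against 0.00 for all genes.

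Between the intact sexes, Timp3, Adamts15 and Adamts2 were lower and Mmp14 was higher in males. These 4 of the 28 members tested (14.3%) compare with 599 of 14937 genes (4.01%). All 4 calls were lost in short-fragment libraries and with the meninges and fibroblast or the Schwann cell covariate, and Adamts2 changed sign with the first of these covariates. In these fits the genes called in the whole table also fell in number, to 34, 23 and 23 in the same order. With the Schwann cell covariate the log2 value of Mmp14 was 0.41 (0.44 without it). Timp3 was at -0.28 (-0.49 without it), Adamts2 at -0.28 (-0.76) and Adamts15 at -0.38 (-0.99). Of the meninges and fibroblast genes, 14 of 17 were lower in intact males, as were 2 of 5 Schwann cell and 1 of 4 endothelial genes. Neuron genes went the other way, with 2 of 5 higher in intact males. The 1 higher member stands beside 1.45% of all genes that were higher, and the 3 lower members beside 2.56% that were lower. Intact males were the group with the lowest mean for 13 of the 29 members (44.8%), against 30.5% of all genes. This comparison shares its intact males with the comparison of GDX with intact males, and the females' comparison shares the intact females, so a low value in a shared group enters both.

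After gonadectomy the sexes showed no member past the test. Between GDX males and OVX females, whose libraries are all of the short-fragment class, edgeR called 0 of 29 members and 35 of 15084 genes (0.232%), with Adamts9 as the 1 member with an unadjusted p under 0.05, where 9.37% of all genes had one; DESeq2 and edgeR's exact test also called 0 members. The interaction, which tests whether males and females differ in their response, called 0 of 29 members and 18 of 15562 genes (0.116%). Its count of genes was 243 with DESeq2 and from 1 to 275 when each rat was left out, with 275 without GDX male 1, 111 without GDX male 2, 108 without intact female 1 and 1 without GDX male 5. Here 5 members had an unadjusted p under 0.05, namely Timp3, Adamts15, Adamts20, Mmp14 and Adamts2, as did 11.6% of all genes, and DESeq2 called 0. The male and the female responses of the members are therefore not shown to differ, although 9 members passed in males and 0 in females.

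Markers of other cell types also differed in GDX against intact males and between the intact sexes. No gene of any marker list was called in OVX against intact females or between GDX males and OVX females. The tissue's own markers were present, with the motor neuron list (most abundant gene Prph) at a mean log2 CPM of 5.13 in intact and 4.96 in GDX males, and of 5.32 in intact and 4.93 in OVX females. Of its 7 genes, 1 was lower in GDX than in intact males. No motor neuron, neuron, astrocyte, oligodendrocyte or microglia marker was at 0 in any library. The list of meninges and fibroblast genes, of which 18 of 20 were in the table and Col1a1 was the most abundant, had mean log2 CPM values of 1.96 in intact and 3.37 in GDX males, and of 3.14 in intact and 3.37 in OVX females. In intact males 1, 2, 3, 5 and 6 it was 2.44, 2.14, 2.05, 1.66 and 1.51, and in GDX males 1, 2, 4, 5 and 6 it was 2.64, 2.91, 3.49, 4.16 and 3.66. Every GDX male lay above every intact male, with GDX male 1 the lowest and GDX male 5 the highest of its group, as for Timp3. The list ran from 2.45 to 3.69 in intact females and from 2.97 to 3.74 in OVX females. Summed, the list took from 96.2 to 240.1 CPM in intact and 224 to 687 CPM in GDX males, and 178 to 534 CPM in intact and 326 to 565 CPM in OVX females. All 17 genes of the list that were tested rose in GDX against intact males, with a median log2 fold change of 1.60, and 14 of 17 were lower in intact males than in intact females. Ogn was at 0 in 5 libraries. None of the members is in a marker list.

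The other lists are given beside this. Schwann cell genes, led by Sox10, which oligodendrocytes also express, had means of 2.54 and 3.57 in males (intact, then GDX) and of 3.85 and 3.83 in females (intact, then OVX), with 2 of 5 genes higher in GDX males and Ncmap at 0 in 1 library. The endothelial list (most abundant Slco1a4) had 4.06, 4.71, 4.37 and 4.81 in the same order, with 4 of 4 tested genes higher after GDX. Mural cell genes, led by Myh11, had 3.42, 3.87, 3.51 and 3.83, with 4 of 6 higher. All 4 of these lists were lowest in intact males, and the endothelial and mural lists were also lower in intact than in OVX females. The neuron list (Snap25) had 6.65, 6.40, 6.48 and 6.48, with 3 of 5 genes lower after GDX, and the astrocyte list (Gfap) 8.53, 8.70, 8.57 and 8.69, with 2 of 5 higher. Oligodendrocyte means (Mbp) were 10.8 in each group, with 1 of 5 genes higher. Their precursors (Pdgfra) had 5.19, 5.29, 5.16 and 5.27, with 1 of 3 higher, and microglia (Csf1r) 3.90, 4.09, 3.92 and 4.03, with 0 of 5. The erythroid list (Hba-a2) was at 0.74, 2.14, 1.11 and 2.11, with 4 tested genes higher and Slc4a1 at 0 in 1 library. Granulocyte genes (S100a9) stood at -1.75, -0.52, -1.81 and -0.99 and T and NK cell genes (Gzmm) at -2.45, -1.85, -2.16 and -2.11. Of these, Elane was at 0 in 18 libraries, Cd3g in 16, Cd3e in 17, Nkg7 in 20, S100a8 in 4 and Camp in 1, and 1 of the T and NK cell genes was tested, and was higher after GDX. Skeletal muscle genes (Acta1) had 0.58, 0.67, 0.71 and 1.40 and ependymal genes (Ccdc153) 0.55, 0.74, 0.86 and 1.01, with 0 of 2 tested genes past the test in each and Ckm at 0 in 2 libraries. The part of the endothelial, mural, erythroid and neuronal lists in the members' results was not tested.

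**Figure D3:**
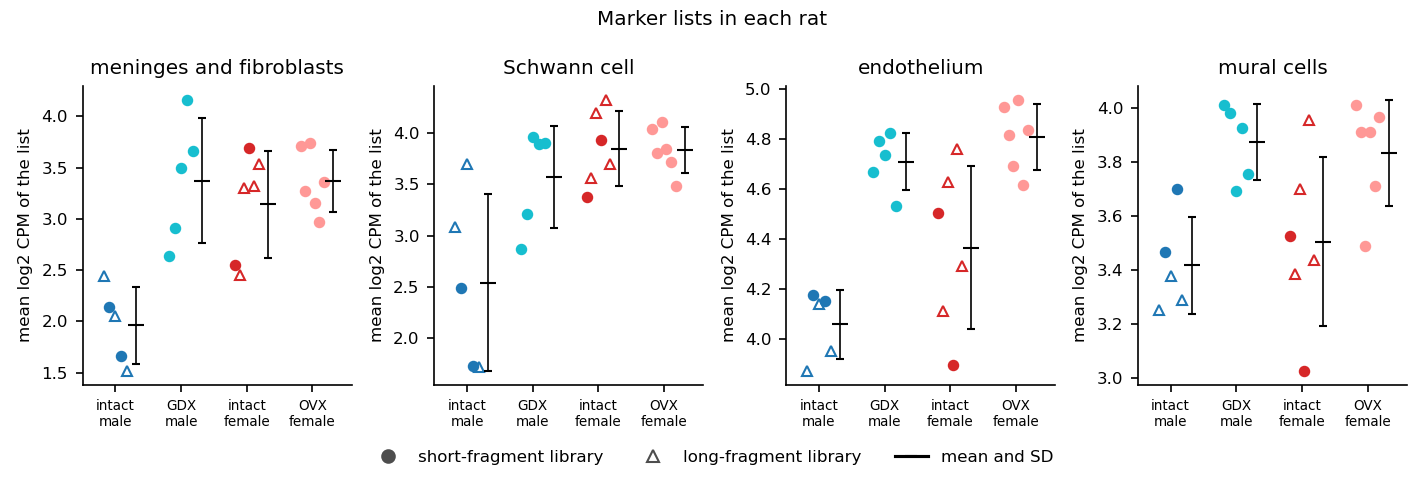
Mean log2 CPM of 4 marker lists (meninges with fibroblasts, Schwann cell, endothelial, mural cell) in each of the 22 rats, by group, with mean and SD; circles are short-fragment and triangles long-fragment libraries. The meninges and fibroblast list has a mean of 1.96 in intact males and 3.37 in GDX males.

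**Figure D4:**
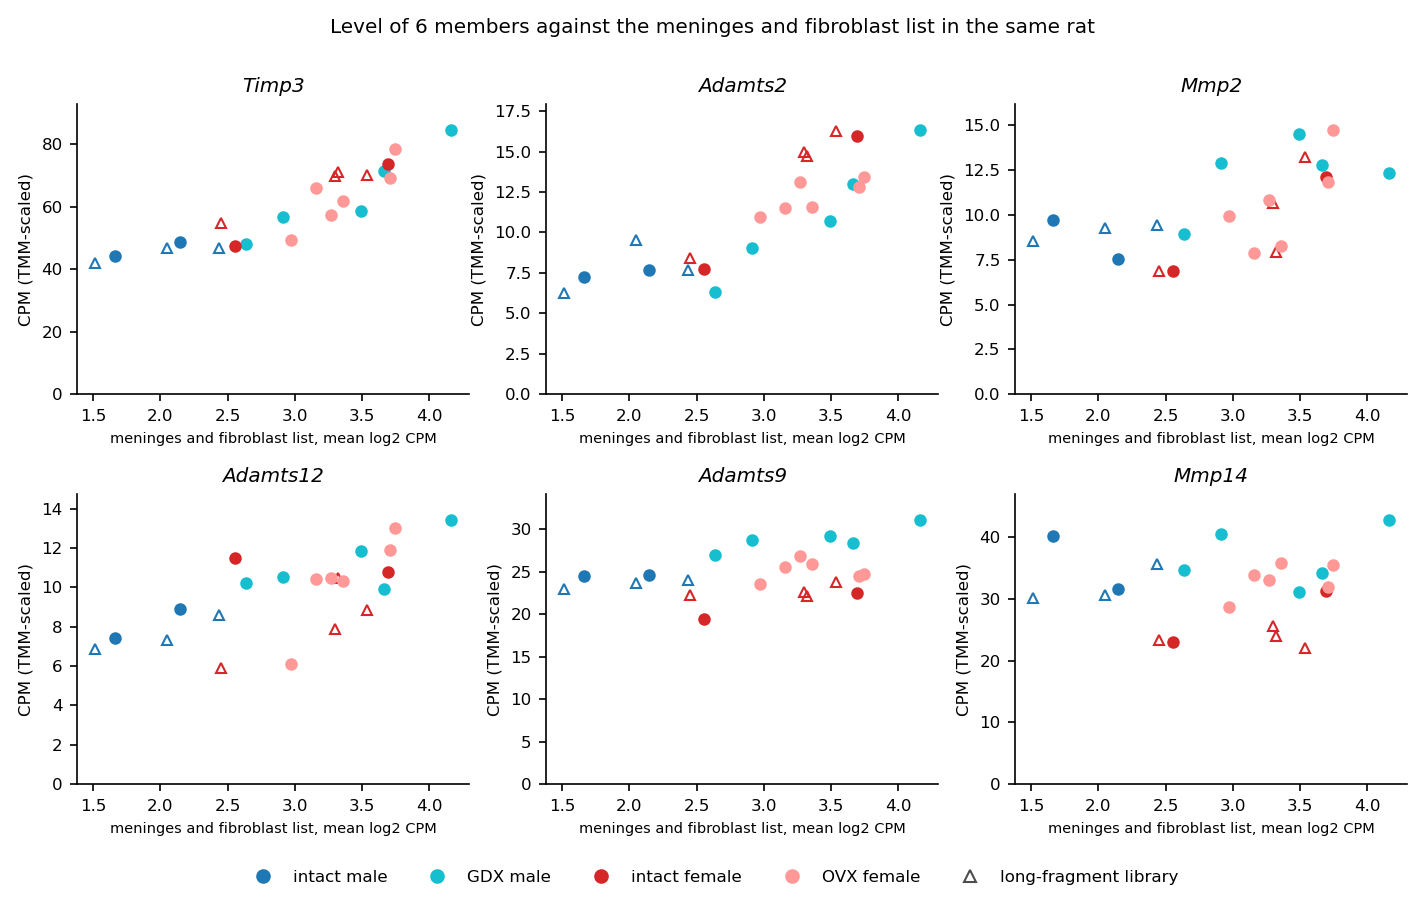
CPM of Timp3, Adamts2, Mmp2, Adamts12, Adamts9 and Mmp14 (vertical axes) against the list mean (log2 CPM) of meninges and fibroblast genes (horizontal axes) in the 22 rats, coloured by group. GDX male 5, with the highest list value of 4.16, also has the highest Timp3 value of 84.4 CPM.

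The members' calls depended on terms for the marker lists and, in GDX against intact males, on a term for the fragment class. In males the meninges and fibroblast list does not overlap between the groups, so that list and gonadectomy can be separated only in part. With the mean of the meninges and fibroblast genes as a covariate, 0 members passed in GDX against intact males, where 6 genes of the whole table passed. In that fit the log2 fold change of Timp3 was -0.13 (SE 0.12, adjusted p = 0.947), with the sign turned, and that of Adamts12 was 0.17, of Mmp2 0.24, of Adamts9 0.14, of Adamts15 0.19 and of Adamts20 -0.19. Adamts10 was at 0.21, Adamts6 at -0.20 and Mmp24 at -0.08. The 4 calls between the intact sexes were lost with this covariate as well, in a fit in which 23 genes of the whole table passed. Adamts2 turned from -0.76 to 0.18 (SE 0.20, adjusted p = 0.928), Timp3 went from -0.49 to -0.03 and Adamts15 from -0.99 to -0.20. Mmp14 went from 0.44 to 0.60 (SE 0.16), with an adjusted p of 0.416. With fragment class as a term, 1 member passed in GDX against intact males, Adamts20 with an adjusted p of 0.0670. In that fit Adamts9 had a log2 fold change of 0.23 with an adjusted p of 0.110, Mmp2 0.51 with 0.119, Adamts12 0.46 with 0.121, Timp3 0.46 with 0.141 and Adamts15 1.01 with 0.118. Adamts10 had 0.23 with 0.245 and Mmp24 -0.19 with 0.288. Adamts6 went from -0.25 to -0.14, with 0.517, and Adamts15 had been at 0.70 without the term. With short-fragment libraries alone, 2 intact against 5 GDX males, Adamts20 was again the 1 member called, and no member was called between the intact sexes, with 2 males against 2 females. With fragment class as a term the 4 calls between the intact sexes were kept, Timp3 at -0.49 (adjusted p = 0.0207), Mmp14 at 0.43 (adjusted p = 0.0167), Adamts15 at -0.99 (adjusted p = 0.0471) and Adamts2 at -0.75 (adjusted p = 0.0601).

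**Figure D5:**
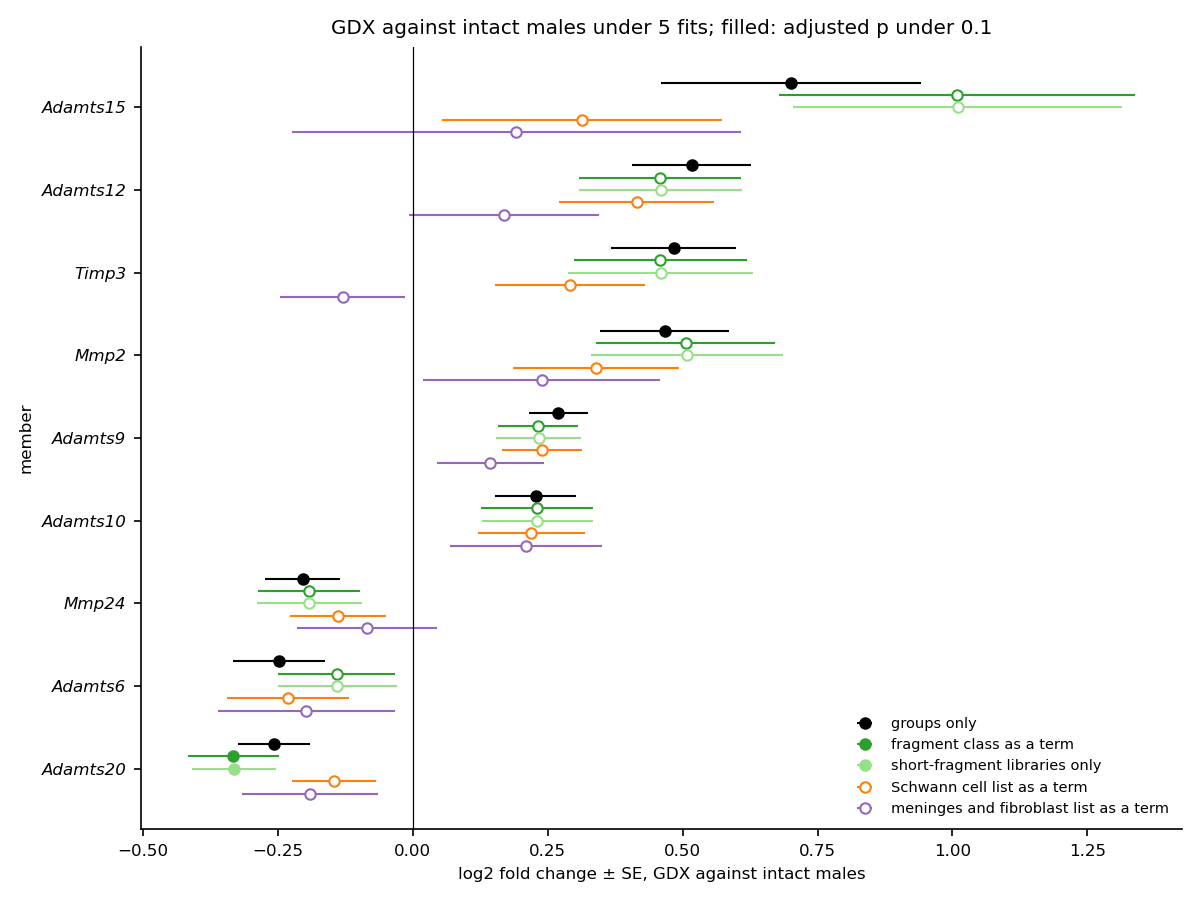
Log2 fold changes of the 9 called members in GDX against intact males under 5 fits: as reported, with fragment class as a term, in short-fragment libraries alone, and with the meningeal or the Schwann cell list as a covariate. Timp3 changes sign, to -0.13, with the meninges and fibroblast list as a covariate.

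Genes of the wider pathway were read in the same fits. Of 51 tested genes from lists of activators, inhibitors, relatives and substrates, 17 were higher and 5 were lower in GDX than in intact males, where 6.78% of all genes tested were higher and 6.58% lower. Of the substrates, 9 of 17 were higher and 1 was lower, and of the activators, inhibitors and clearance receptors 4 of 20 were higher and 1 was lower; differences between these lists were not tested. Of the ADAMTS-like proteins, which lack the protease domain, 2 of 4 were higher, and of the membrane ADAM relatives 2 of 10 were higher and 3 lower. Fibronectin (Fn1) rose from a mean of 45.5 ± 6.72 CPM (SD, n = 5) to 113 ± 39.7 CPM (SD, n = 5), with a log2 fold change of 1.31 (adjusted p = 0.00346 with edgeR). The collagen genes Col1a1 and Col3a1 rose by 1.81 (adjusted p = 0.00848) and 1.73 (adjusted p = 0.00607), and both are also in the meninges and fibroblast list. Elastin (Eln) rose by 0.86 (adjusted p = 0.00848), tenascin C (Tnc) by 0.49 (adjusted p = 0.00607) and the basement membrane gene Nid2 by 0.53 (adjusted p = 0.00848). The hyaluronan receptor gene Cd44 rose by 0.45 (adjusted p = 0.00554), and the matricellular genes Thbs2 and Thbs1 rose by 0.62 (adjusted p = 0.00820) and 2.11 (adjusted p = 0.0131). Adam23, a neuronal ADAM without protease activity, fell, with a log2 fold change of -0.35 (adjusted p = 0.00611). Of these 10 genes, the ones with the smallest p-values among those that passed, 9 were higher and 1 was lower. The 22 pathway calls in this comparison became 10 with fragment class as a term, 8 in short-fragment libraries alone, 1 (Cd44) with the Schwann cell covariate and 0 with the meninges and fibroblast covariate, and 14 to 22 when each rat was left out, with 14 without GDX male 5.

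In the other comparisons the pathway lists held fewer calls. OVX against intact females and GDX males against OVX females called 0 of the pathway genes with edgeR's quasi-likelihood test, with unadjusted p-values under 0.05 for 8 of 51 and 6 of 52 tested genes, beside 10.2% and 9.37% of all genes. DESeq2 called 2 of them (Adam23 and Col4a1) in the former and 1 (Tnc) in the latter. The exact test called Col4a1 in the former and Tnc in the latter. Without intact female 1, Adam23 was called in the former. Between GDX males and OVX females the Schwann cell covariate called 6 (Lrp1, Spock2, Thbs1, Acan, Col4a2 and Tnc), where 620 genes of the whole table passed. Tnc was also called there with the meninges and fibroblast covariate and with all 22 rats in 1 fit. Between intact males and females, 1 of 50 tested genes was higher and 7 were lower in males, beside 1.45% and 2.56% of all genes. In short-fragment libraries 0 pathway genes were called, where 34 genes of the whole table passed. With the Schwann cell covariate 1 of these 8, Cd44, was kept, where 23 genes of the whole table passed. The meninges and fibroblast covariate kept none of the 8, and 23 genes of the whole table passed with it. The 1 pathway gene called with this covariate was Col1a1, higher in males and itself in that list. The count of calls between the intact sexes was 4 without intact male 5 or intact female 5 and 5 without intact male 2 or 6 or intact female 4. It was 12 without intact female 1 or 2. Over the whole table, leaving out each rat gave from 352 to 777 genes, with 777 without intact female 1. DESeq2 gave 12 pathway genes, the exact test and all 22 rats in 1 fit gave 11 each, and a replicate block gave 3. Over the whole table these fits called 820, 685, 613 and 255 genes in that order. The interaction called Cd44 alone with edgeR's quasi-likelihood test, at 0.51 (adjusted p = 0.0973). No pathway gene was called there with fragment class as a term, in short-fragment libraries or with either covariate. The same held with a replicate block and at the 1 CPM minimum. DESeq2 called 3 pathway genes (Cd44, Eln and Tnc) in the interaction. Without GDX male 1 the count was 5, without intact female 1 it was 3 and without GDX male 2 it was 2. Cd44 was kept only without intact male 3, GDX male 1 or 2, intact female 1 or 2, or OVX female 1 or 3 when each rat was left out. Mean Cd44 in males was 28.6 ± 1.63 CPM (SD, n = 5) when intact and 39.1 ± 4.48 CPM (SD, n = 5) after GDX. In females it was 40.4 ± 4.01 CPM (SD, n = 6) when intact and 38.8 ± 2.94 CPM (SD, n = 6) after OVX. Its low group was the intact males, as for Timp3.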

How the data were processed

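Per the methods, RNA was made into stranded total RNA libraries with the Pico kit and sequenced as single reads. The authors trimmed reads with Trimmomatic 0.33, aligned them with Hisat2 2.1.0 to the rat genome Rnor_6.0 and counted reads per gene with Subread. The submitters' notes name TopHat2 2.0.13 as the aligner, and Truseq protocols, so the exact steps are not certain. The deposited counts are raw read counts of 22 rats, 1 column per rat, with 0 columns not assigned. How the counting treated strand, overlaps and multi-mapped reads is not stated, so reads shared by related or overlapping genes may count to either.

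Each pair of groups was fitted alone with edgeR 4.0.16 in R 4.3.3 (filterByExpr on low counts, TMM scaling, quasi-likelihood F test), and the interaction over all 22 rats. P-values were two-sided and adjusted over all genes tested by Benjamini-Hochberg, and a gene was called at an adjusted p under 0.1. They measure the spread between rats. SE is the log2 fold change divided by the square root of F. CPM are TMM-scaled over the 22 libraries, with a prior count of 2 for log2 CPM of the marker lists.

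Members with a call in any comparison, the 4 TIMP genes, Mmp2, Mmp14, Adamts1, Adamts4, Adamts5 and Adamts9 are given rat by rat in males, with lowest, median and highest values in females, and the others by count or range. Of the pathway genes, the 10 with the smallest p-values among those called in GDX against intact males are named. Members and lists were chosen with earlier results of these data known. Alternatives were DESeq2 1.42.0, edgeR's exact test, RLE scaling (DESeq2's size factors), no filter, a minimum of 1 CPM, an adjusted p under 0.05, terms for fragment class, marker lists and replicate number, short-fragment libraries alone, all rats in 1 fit, and leaving out each rat. The fits were also tested on simulated data, from which no value is given here. Promoters and gene positions are from RefSeq, build GRCr8.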

Additional observations from a re-analysis of the deposited data

Results flagged for a closer look

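Timp4 in intact male 1 was at 17.6 CPM, the lowest of its group, where the nearest of the other 4 intact males was at 19.6 CPM. The gap between them is 0.747 of the range of the group. This was the 1 single value found among 68 sets of values searched, each set being 1 member in 1 of the 4 groups. The same rats enter many of these sets. Chance alone is expected to give such a gap in about 1 in 20 sets. Values of 17.6 CPM also occurred in GDX male 6, intact female 3 and OVX female 3. The cause was not tested.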

How the results depend on the processing

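For GDX against intact males, the 9 members called became 5 at an adjusted p under 0.05, 5 with no filter, 1 with fragment class as a term, 1 in short-fragment libraries alone, 0 with the meninges and fibroblast term, and 0 with the Schwann cell list as a term, an alternative chosen after seeing the data. The genes called in the whole table also fell in number in these fits, to 796, 440, 6 and 75 for the last 4. With the Schwann cell term the log2 value of Adamts9 was 0.24 (0.27 without it), of Adamts10 0.22 (0.23), of Adamts6 -0.23 (-0.25) and of Adamts12 0.41 (0.52). Timp3 was at 0.29 (0.48), Mmp2 at 0.34 (0.47), Mmp24 at -0.14 (-0.20), Adamts15 at 0.31 (0.70) and Adamts20 at -0.15 (-0.26). DESeq2 and edgeR's exact test called 8 each, 7 of them shared with the 9. RLE scaling, the 1 CPM minimum and all 22 rats in 1 fit called the same 9. Leaving out each rat gave 5 to 9, with 5 without intact male 5, intact male 6 or GDX male 5; Adamts9, Adamts12, Adamts20, Mmp2 and Timp3 were kept in all 10.

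For OVX against intact females, the count of 0 became 1, Mmp14, with DESeq2 (adjusted p = 0.000575), the exact test (0.00171), RLE scaling (0.0943), no filter (0.0461) and the Schwann cell term (0.0890), and it stayed 0 under the other alternatives apart from leaving out rats. Leaving out each rat gave 0 to 1, with 1 without intact female 1 or 4 or OVX female 4 or 5. For the intact sexes, the 4 became 0 in short-fragment libraries alone, 0 with the meninges and fibroblast term and 0 with the Schwann cell term. In those fits the genes called in the whole table fell from 599 to 34, 23 and 23. The members called were 4 with fragment class as a term, and 2 to 4 when each rat was left out, with 2 without intact male 2, 5 or 6. For GDX males against OVX females, the 0 became 1 with the Schwann cell term, Adamts9 (adjusted p = 0.0678). The interaction called 0 under every alternative run.

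Rat numbers recur between groups, but deviations of rats with the same number correlated at 0.0626 or less, so the rats were not treated as paired. With a replicate block, 5 members were called in GDX against intact males (Adamts12, Adamts15, Adamts20, Adamts9 and Timp3) and 2 between the intact sexes (Mmp14 and Timp3).

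With the meninges and fibroblast term, Timp3 in GDX against intact males turned to -0.13 and Adamts2 between the intact sexes to 0.18; the cause was not tested. Among the members given rat by rat in males, these 2 of 290 values of called members changed sign, and neither passed. A further 104 of the 290 kept their sign but no longer passed, and 14 of 1784 values not called passed. Outside these, Adamts14 passed in GDX against intact males without intact male 1 and Adamts3 without GDX male 2. A fragment class term could not be fitted for GDX males against OVX females, which have 1 class, and the exact test has no form for the interaction. Whether depth or absence of expression limits the 14 members that passed no filter was not tested.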

Other observations

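Adamts13, which cleaves von Willebrand factor, had 45 counts in all, nearly all of them in 4 OVX females. OVX females 1, 2, 4 and 5 had 6, 4, 22 and 11 counts, OVX females 3 and 6 had 0, and single counts were found in GDX male 6 and intact male 3. The gene passed no filter and was not tested, and it was singled out after its values were seen.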
